A study of Mus musculus with 6 samples.

Results

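The proteasome genes described here are the protein-coding genes named Psma, Psmb, Psmc, Psmd, Psme, Psmf or Psmg with a number, without the immunoproteasome subunits Psmb8, Psmb9 and Psmb10. The rule found 45 of the 33971 genes in the table of articular cartilage from mice. They are 8 genes of the outer alpha ring of the 20S core, 8 of its inner beta ring, 6 ATPases and 11 other subunits of the 19S cap, 5 activators and inhibitors of the core, and 7 assembly chaperones. All mice were wild type (WT in the labels) with no treatment named. The mice were 2 months old for 3 libraries and 18 months old for the other 3, and age was the only difference in the labels. The methods of the study describe male mice, and the labels give neither strain nor sex for these libraries nor say whether each library came from 1 mouse. P-values therefore measure the spread between these libraries, which may be technical.

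The proteasome degrades proteins that carry chains of ubiquitin. A barrel of stacked rings, the 20S core, encloses the proteolytic sites in its inner beta rings, and the outer alpha rings form a gate. The 19S cap binds the ubiquitin chain, removes it, unfolds the protein with a ring of ATPases and opens the gate. The same core can instead take other caps, and dedicated chaperones put rings and cap base together. In cells that see interferon, and in blood cells, inducible beta subunits replace the constitutive catalytic ones.

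The promoters of many proteasome genes are read by the transcription factor Nfe2l1 and, under oxidative stress, by its relative Nfe2l2, which bind the antioxidant response element. Its core, TGACNNNGC, was searched on both strands in the RefSeq windows of 300 bases, 250 before and 50 after a gene's start, on GRCm38.p6. Windows were given for 37 of the 45 genes, some with more than 1 start, which made 40 windows. The core was found in 6 of the 40 (15%), against 12.4% of all 32851 windows. The close form TGAGNNNGC, which differs in 1 base so that no stretch of a strand is both, was found in 13 of the 40 (32.5%) against 17.6% of all windows. Below are the bases before the start of 4 genes, on the strand of the gene and cut where the deposited gene model begins, with the core in capitals where it occurs. Psmb5 and Psmb6 are catalytic subunits that carry it near the start, Psmd14 is the cap subunit with the largest age difference and has no match, and Psmd12 carries it on the opposite strand and did not pass the test. The intervals are chr14:54618023-54618245 on the minus strand for Psmb5, chr11:70525107-70525356 on the plus strand for Psmb6, chr2:61711444-61711693 on the plus strand for Psmd14 and chr11:107479278-107479483 on the plus strand for Psmd12.
Psmb5: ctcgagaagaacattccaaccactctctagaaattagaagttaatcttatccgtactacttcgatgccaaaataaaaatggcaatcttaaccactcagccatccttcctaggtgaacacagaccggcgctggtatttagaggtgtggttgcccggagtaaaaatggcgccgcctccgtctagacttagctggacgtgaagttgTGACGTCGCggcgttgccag
Psmb6: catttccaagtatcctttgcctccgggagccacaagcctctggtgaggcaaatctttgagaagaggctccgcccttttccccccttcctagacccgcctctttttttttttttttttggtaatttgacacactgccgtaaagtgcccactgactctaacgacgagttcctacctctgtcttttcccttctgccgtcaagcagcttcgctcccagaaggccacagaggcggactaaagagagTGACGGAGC
Psmd14: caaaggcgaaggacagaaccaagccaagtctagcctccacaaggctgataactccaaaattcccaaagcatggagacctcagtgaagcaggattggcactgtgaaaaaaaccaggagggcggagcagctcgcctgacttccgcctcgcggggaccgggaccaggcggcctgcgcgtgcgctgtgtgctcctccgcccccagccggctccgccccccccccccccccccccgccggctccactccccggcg
Psmd12: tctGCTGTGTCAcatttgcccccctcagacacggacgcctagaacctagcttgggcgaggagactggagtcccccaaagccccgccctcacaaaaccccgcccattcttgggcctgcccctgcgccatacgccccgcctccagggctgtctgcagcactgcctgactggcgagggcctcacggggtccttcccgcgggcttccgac
In Psmb6 the match ends on the last base before the RefSeq start, from -9 to -1, and in Psmb5 it lies from -47 to -39. A match describes these letters and not a bound site.

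The libraries held 48171507 to 51683577 counts at 2 months and 55201357 to 59085179 at 18 months. Libraries of both ages stood apart in the RNA of cell type markers. The summed FPKM (fragments per kilobase of transcript, scaled to the fragments of the library) of 12 chondrocyte markers was 9217 to 10867 at 2 months and 63.0 to 269 at 18 months, and all 12 fell, although the tissue is labelled as cartilage. Neutrophil markers summed to 7.86, 4048 and 108 FPKM in 2-month replicates 1, 2 and 3, and to between 41492 and 46503 at 18 months. None of these 10 passed the edgeR test, with 1 at an unadjusted p below 0.05, while DESeq2 called 8. Erythroid markers behaved likewise, at 288, 7370 and 788 FPKM against 29874 to 39634, with 3 of 8 past the test (7 with DESeq2) and none at 0 in all libraries of an age. The summed FPKM of 8 proliferation genes was 3.98, 95.9 and 9.56 at 2 months against 331 to 346, with 4 of 8 higher (8 with DESeq2). Skeletal muscle markers summed to 6.08 to 29.7 FPKM against 4.18 to 5.45, with 4 of 8 lower and Myh4 and Myh1 at 0 at 18 months. Of 8 osteoblast markers 3 were lower, at 1932 to 3598 against 938 to 954 FPKM in sum. For 8 markers of B and plasma cells the sums were 71.1 to 250 and 616 to 716 FPKM with 1 higher, and for 8 of monocytes and macrophages 13.6 to 661 and 4009 to 5310 FPKM with 2 higher (5 with DESeq2). Xist, expressed from the inactive X of females, had 89.5 to 101 FPKM at 2 months and 0.0088 to 0.026 at 18 months. The Y-linked Ddx3y had 0.034, 0 and 0.013 FPKM at 2 months and 13.8, 13.3 and 14.5 at 18 months. It and the Y-linked Uty, Kdm5d and Eif2s3y were all higher at 18 months. A pattern of sex thus divides the libraries as age does, and the 2-month libraries do not match the male mice of the methods. These shifts moved with every age difference given here, and their part in the results was not tested. In bulk tissue, fewer cells of a type and less RNA per cell cannot be told apart.

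Proteasome genes were higher in the older tissue as a group. At 18 months 34 of the 44 genes tested rose and none fell at an adjusted p below 0.05 in edgeR's quasi-likelihood test, where 23.4% of all 20397 genes tested were higher and 27.9% lower. At an unadjusted p below 0.05 Psmd7 alone was lower, and DESeq2 also called none lower. Their median log2 fold change, 18-month over 2-month, was 0.70, against -0.02 for all genes tested. Among the 7687 genes tested with a mean FPKM of at least 5, 36.3% were higher. With values rescaled to TPM, which moved the median of all genes to -0.37, 17 proteasome genes were higher and 2 lower, with a median of 0.34. Of the 34 rises 17 held in each of the 16 other settings and 8 were lost on TPM alone. With 1 library left out, 9 calls could be lost, those of Psmb4, Psmc1, Psmc3, Psmc6, Psmd1, Psmd11, Psmg2, Psmg3 and Psmd9. All 9 were lost without 2-month replicate 3 (edgeR adjusted p of 0.0572 to 0.145), all but Psmc3 without 18-month replicate 3 (0.053 to 0.132), and all but Psmc3 and Psmc6 without 18-month replicate 2 (0.0645 to 0.125). Without 2-month replicate 1 the calls of Psmd1, Psmd11, Psmg2 and Psmg3 were lost (0.0553 to 0.09), without 18-month replicate 1 those of Psmc1 and Psmg3 (0.0813 to 0.0847), and without 2-month replicate 2 that of Psmd9 (0.0636).

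**Figure D1:**
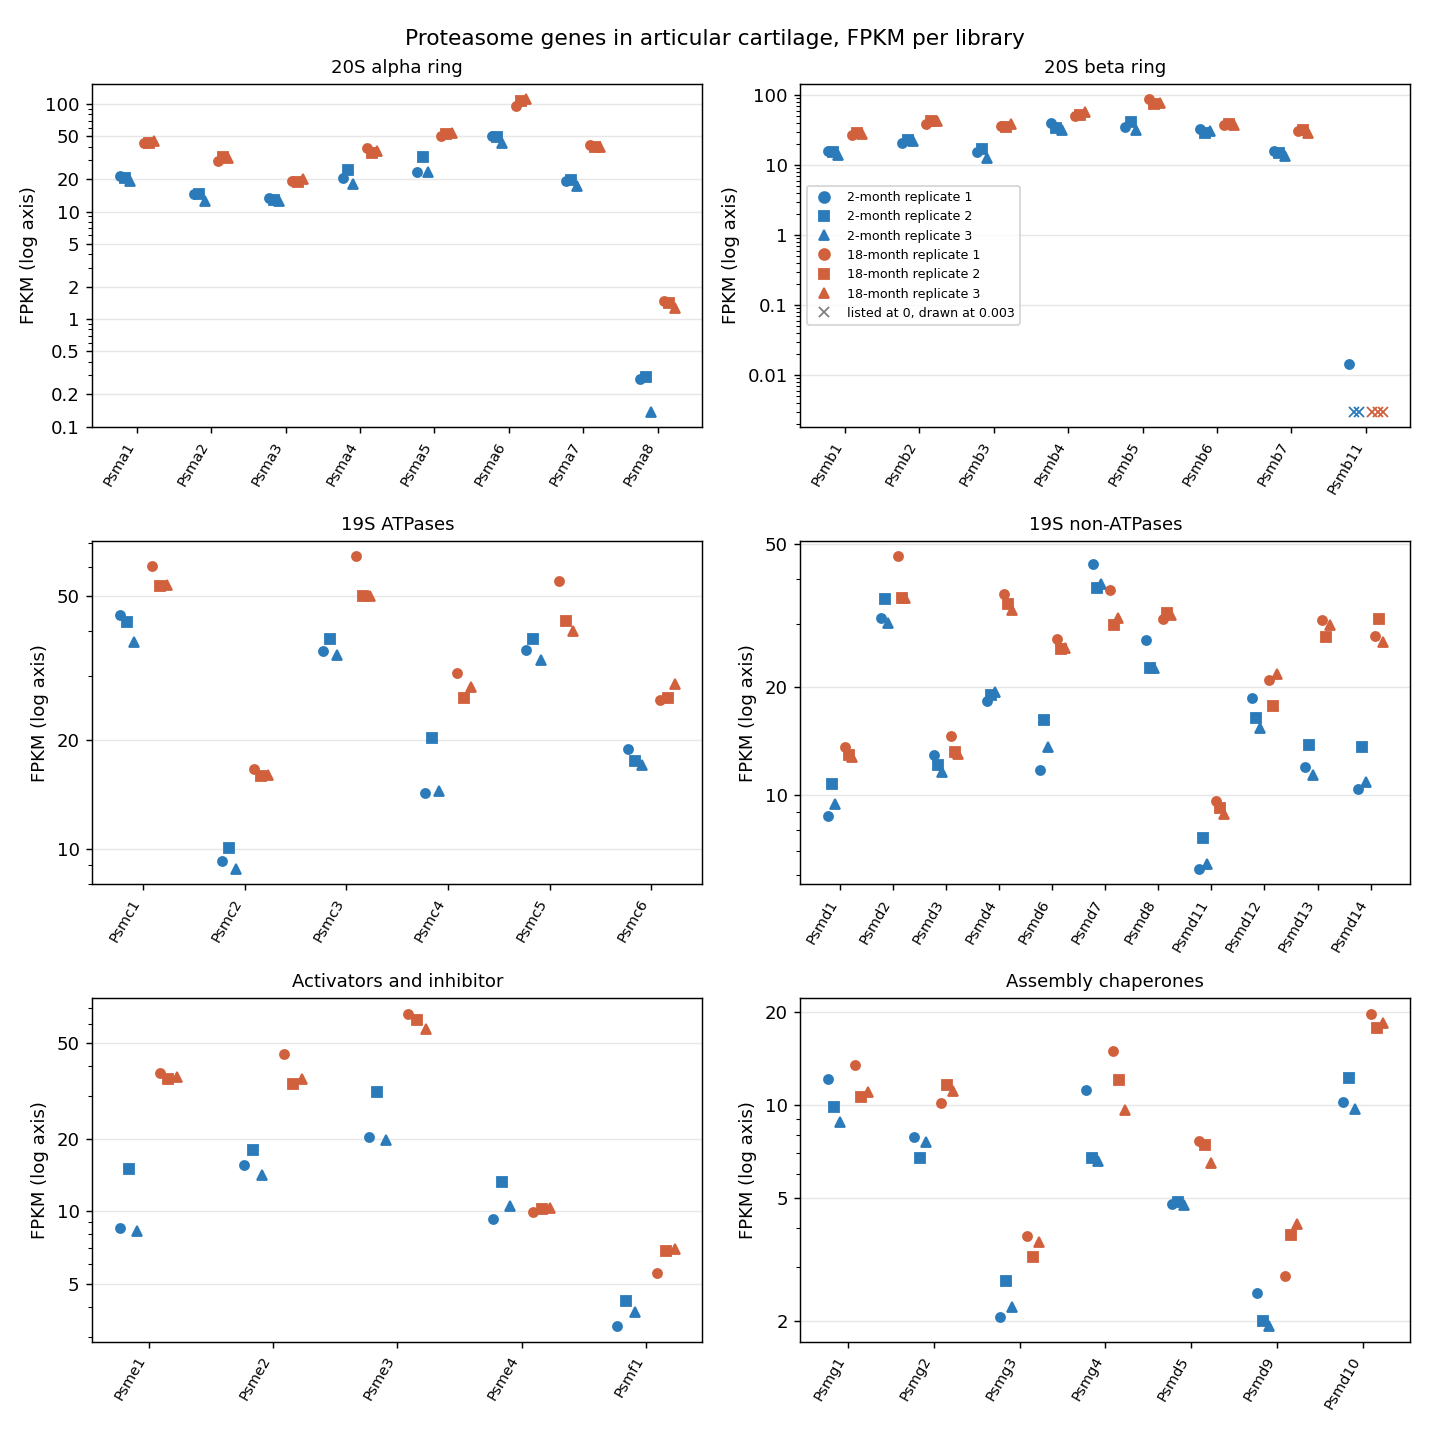
FPKM of each proteasome gene on log axes, with 1 panel for each functional class and 1 point for each library, 2-month libraries in blue and 18-month libraries in orange. In 39 of the 44 genes tested every 18-month point lies above every 2-month point, Psmd7 is the 1 gene with the opposite order, and Psmb11 is listed at 0 except in 2-month replicate 1.

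In the plot of FPKM by library the ages did not overlap, with 18 months higher, in 39 of the 44 genes, against 35.6% of all genes tested. The 45 genes together took 0.238%, 0.252% and 0.227% of the counts of 2-month replicates 1, 2 and 3, and 0.407%, 0.387% and 0.390% at 18 months. The libraries of each age were close. The coefficient of variation of FPKM over the 3 libraries had a median of 10.2% at 2 months and 6.15% at 18 months. It ranged from 1.14% (Psmd5) to 36.2% (Psme1) at 2 months and from 1.60% (Psme4) to 21.7% (Psmg4) at 18 months. The 2-month library with blood cell markers, replicate 2, was the highest of its age in 25 of the 44 genes, among them all 5 activators and inhibitors and 7 of the 15 core genes. At 18 months replicate 1 was the highest of its age in as many, 25 of the 44. Among them were 5 of the 6 ATPases and 8 of the 11 other cap subunits. The share of all genes tested with either order was not computed, so these counts cannot be read as a trait of the proteasome genes.

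The rise was not even across the complex. The median log2 fold change was 1.03 in the alpha ring (8 of 8 genes rose), 0.86 in the beta ring (6 of 7 tested), 0.52 in the ATPases (5 of 6) and 0.36 in the other cap subunits (6 of 11). It was 1.18 in the activators and inhibitor (4 of 5) and 0.50 in the chaperones (5 of 7). Leaving out Psma8 and Psmb11, which other tissues use, 13 of 14 core genes lay above the median of the cap, and 15 of 17 cap genes lay below the median of the core. As a level, the median FPKM of the 17 cap genes divided by that of these 14 core genes was 0.888, 0.810 and 0.834 at 2 months and 0.788, 0.708 and 0.724 at 18 months. The ratio was lower in each 18-month library, although the lowest 2-month and the highest 18-month value lay close together. On TPM the medians kept their order between core and cap, at 0.68 and 0.50 for the alpha and beta rings and 0.16 and 0.0072 for the ATPases and other cap subunits.

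**Figure D2:**
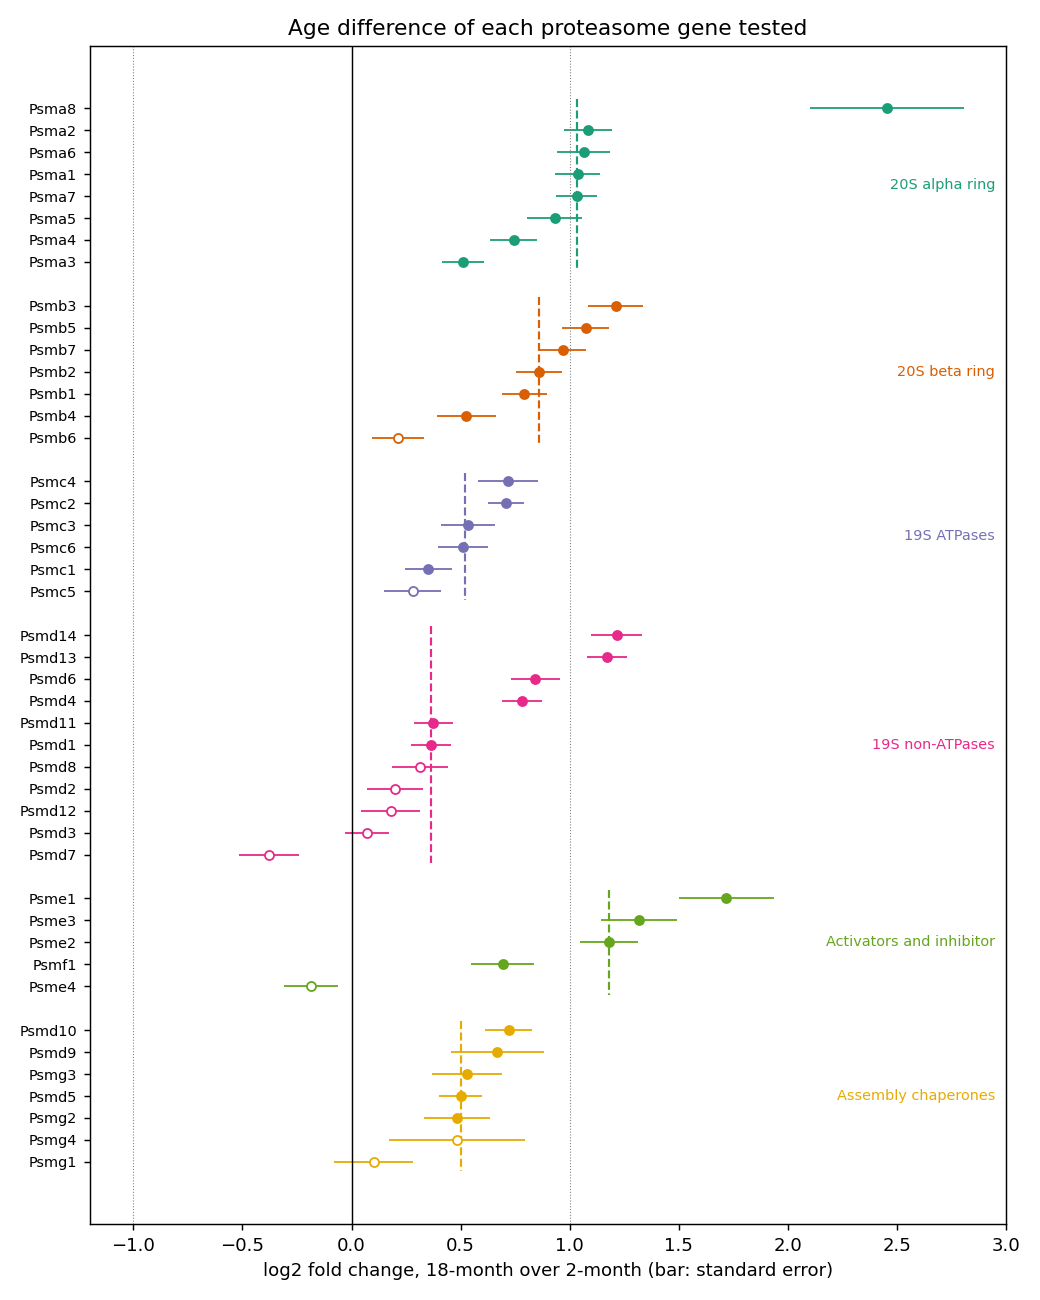
Log2 fold change of 18-month over 2-month libraries for each of the 44 genes tested, ordered within its class, with bars for the standard error, filled points for an adjusted p below 0.05 and a dashed line at the class median. The alpha ring centres on 1.03 and the non-ATPases on 0.36, and the dotted lines mark a log2 fold change of 1 in either direction.

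Of the 12 genes past both limits of the study, an adjusted p below 0.05 and a log2 fold change above 1, 5 belonged to the alpha ring, 2 to the beta ring, 2 to the cap and 3 to the activators. Genes that rose past both limits made up 14.9% of all genes tested. Alpha subunits carry no proteolytic activity and set the gate and the docking surface for the caps.

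Psma6, the most abundant alpha gene by FPKM, was at 50.4, 48.9 and 43.3 FPKM at 2 months and 96.3, 108 and 111 FPKM at 18 months, in the order of replicates 1, 2 and 3 used throughout. Its level about doubled without overlap, with a log2 fold change of 1.06 (SE 0.12, edgeR adjusted p = 0.00193). Psma1 had 21.5, 20.5 and 19.1 FPKM against 43.5, 43.6 and 45.1, a log2 fold change of 1.04 (SE 0.10, edgeR adjusted p = 0.00153). The libraries of each age lay within a few FPKM of each other for this gene. Psma2 rose from 14.7, 14.5 and 12.5 to 29.6, 32.2 and 31.3 FPKM, with a log2 fold change of 1.08 (SE 0.11). Psma7 rose from 19.3, 19.6 and 17.3 to 41.6, 39.8 and 39.9 FPKM, with a log2 fold change of 1.03 (SE 0.09). These genes, named because they passed both limits, had log2 fold changes between 1.03 and 1.08. The limit bounds that range from below, and Psma8, described below, passed both limits too. The smallest rise of the ring was that of Psma3, from 13.4, 12.9 and 12.5 to 19.4, 18.9 and 19.9 FPKM, with a log2 fold change of 0.51 (SE 0.10). Psma4 and Psma5 lay between, at 0.74 and 0.93.

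Psma8, the testis counterpart of Psma7, was the scarcest alpha gene and had the largest difference. It had 39, 43 and 20 counts at 2 months and 248, 221 and 204 counts at 18 months. In FPKM these were 0.275, 0.286 and 0.138 against 1.47, 1.39 and 1.28, with a log2 fold change of 2.46 (SE 0.35, edgeR adjusted p = 0.00349). Its FPKM was 0.0080 to 0.015 of that of Psma7 at 2 months and 0.032 to 0.035 at 18 months. Psma7 and Psma8 are paralogs, and how the counting shared reads between them is not given in the sources used here, so the value of Psma8 is uncertain.

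Of the beta subunits, Psmb5, Psmb6 and Psmb7 carry the active sites and the others build the ring. Psmb5, which holds the chymotrypsin-like site and lies at chr14:54614119-54618022 (GRCm38), was at 34.8, 41.9 and 32.0 FPKM at 2 months and 87.4, 75.4 and 78.1 FPKM at 18 months. It was the most abundant beta gene and rose by 1.07 on the log2 scale (SE 0.11, edgeR adjusted p = 0.00158). Psmb7, which holds the trypsin-like site, had 15.7, 14.8 and 13.5 FPKM against 30.6, 31.4 and 29.0, with a log2 fold change of 0.97 (SE 0.11, edgeR adjusted p = 0.00183). Both catalytic genes thus moved with the alpha ring.

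Psmb6, which holds the caspase-like site and lies at chr11:70525367-70527858, was at 33.2, 28.4 and 30.3 FPKM at 2 months and 37.5, 38.3 and 37.0 FPKM at 18 months. Its libraries did not overlap, but the log2 fold change was 0.21 (SE 0.12, edgeR adjusted p = 0.184). On the TPM scale its sign turned, at -0.14. The FPKM of Psmb5 divided by that of Psmb6 was 1.05, 1.48 and 1.06 at 2 months and 2.33, 1.97 and 2.11 at 18 months. Both genes carry the TGACNNNGC core printed above.

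Psmb3, a structural beta subunit, had the largest difference of the ring, from 15.5, 17.05 and 12.5 to 36.3, 34.8 and 38.7 FPKM. Its log2 fold change was 1.21 (SE 0.12, edgeR adjusted p = 0.00163). Psmb1, Psmb2 and Psmb4 rose with log2 fold changes of 0.79, 0.86 and 0.53, and the call of Psmb4 was lost in 6 of the 16 other settings. Psmb11, the beta subunit of the thymus cortex, had 4 counts in 2-month replicate 1 and 0 in every other library, and was not tested.

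The immunoproteasome subunits each replace 1 of these catalytic subunits, and the ratio of the pair describes the make-up of the core messages. The FPKM of Psmb8 was 0.0131, 0.142 and 0.0166 of that of Psmb5 at 2 months and 0.325, 0.351 and 0.332 at 18 months. For Psmb9 over Psmb6 the ratios were 0.0106, 0.0968 and 0.0163 against 0.432, 0.381 and 0.404. Psmb10 over Psmb7 gave 0.149, 0.508 and 0.203 against 0.633, 0.529 and 0.612. In each pair the 18-month libraries were the higher ones, and the constitutive gene stayed the more abundant of the pair in all 6 libraries. The geometric means of the ratios differed 10.7-fold, 15.9-fold and 2.37-fold, or by 3.42, 3.99 and 1.24 on the log2 scale. A two-sided exact permutation test gave p = 0.1 for each, also after adjustment over the 3 pairs. That is the smallest p that 3 libraries against 3 allow. The 2-month library with blood cell markers, replicate 2, had the highest 2-month ratio in every pair. Without it the log2 differences were 4.51, 4.95 and 1.76, and without 2-month replicate 1 they were 2.79, 3.35 and 0.88.

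**Figure D3:**
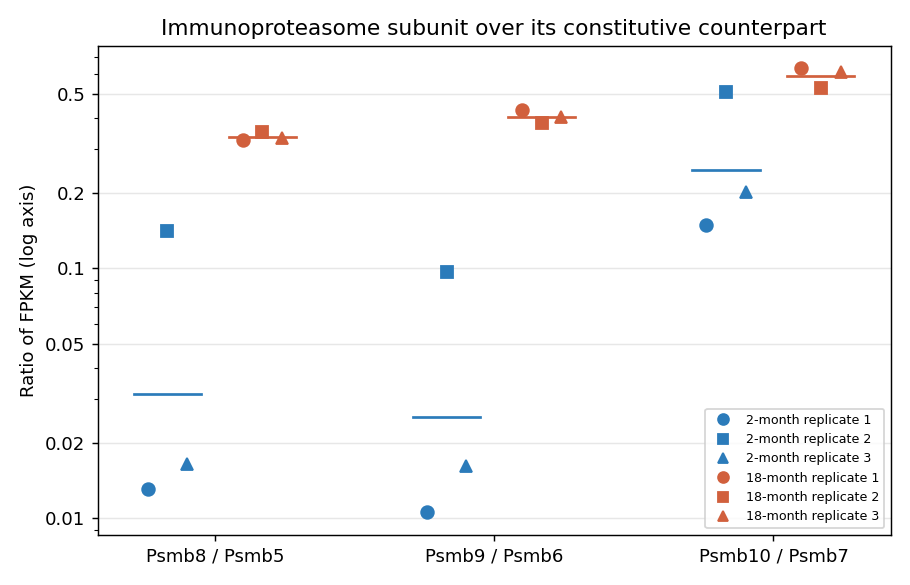
FPKM of each immunoproteasome subunit divided by that of the constitutive subunit it replaces, on a log axis, with 1 point for each library and bars at the geometric mean of each age. The 18-month libraries sit between 0.325 and 0.633, and among the 2-month libraries replicate 2 is the highest in each pair.

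The 19S ATPases form the ring that pulls proteins into the core. All 6 had higher FPKM in every 18-month library, 5 rose, and none passed a log2 fold change of 1. Psmc4 had the largest difference, from 14.2, 20.3 and 14.4 to 30.4, 26.0 and 27.9 FPKM, with a log2 fold change of 0.72 (SE 0.14, edgeR adjusted p = 0.00804). Psmc1, the most abundant, was at 44.1, 42.3 and 37.3 against 60.3, 53.1 and 53.4 FPKM, with a log2 fold change of 0.35 (SE 0.11, edgeR adjusted p = 0.0393). The call of Psmc1 was lost in 8 of 16 other settings, and on TPM its value was -0.0023. Psmc2, Psmc3 and Psmc6 rose by 0.71, 0.53 and 0.51 on the log2 scale. Psmc5 had 35.5, 38.0 and 33.2 against 54.7, 42.5 and 39.9 FPKM and did not pass, at 0.28 (SE 0.13, edgeR adjusted p = 0.118), with 18-month replicate 1 well above the others.

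The other cap subunits differed most among themselves, with log2 fold changes from -0.38 to 1.21. Both ends of that range belong to 1 pair. Psmd14, the deubiquitinase that cuts the chain off the substrate, and Psmd7, its catalytically inactive partner, form the dimer that joins the lid to the base. Psmd14, at chr2:61711694-61800376, was at 10.4, 13.6 and 10.9 FPKM at 2 months and 27.7, 30.9 and 26.6 FPKM at 18 months, with a log2 fold change of 1.21 (SE 0.12, edgeR adjusted p = 0.00148). Psmd7, at chr8:107580381-107588464, had the highest mean FPKM of the class over the 6 libraries but stood below Psmd2 in each 18-month library, at 43.9, 37.6 and 38.6 FPKM against 37.1, 29.7 and 31.1. It was the only proteasome gene tested with every 18-month library below every 2-month library, but did not pass the test at -0.38 (SE 0.14, edgeR adjusted p = 0.0611). The FPKM of Psmd14 divided by that of Psmd7 was 0.237, 0.362 and 0.283 at 2 months and 0.748, 1.04 and 0.854 at 18 months. Without 2-month replicate 2 Psmd7 passed as lower, at -0.44 (edgeR adjusted p = 0.018), and on TPM it passed at -0.73 (limma adjusted p = 0.00777).

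Psmd13, a scaffold subunit of the lid, rose from 11.9, 13.8 and 11.4 to 30.8, 27.6 and 29.7 FPKM, a log2 fold change of 1.17 (SE 0.09, edgeR adjusted p = 0.00105). Psmd4, a ubiquitin receptor, rose by 0.78 on the log2 scale and Psmd6 by 0.84. Psmd1 and Psmd11 rose by 0.36 and 0.38, and these calls were lost in 7 and 6 of the 16 other settings. Psmd2, Psmd3, Psmd8 and Psmd12 did not pass, with log2 fold changes of 0.20, 0.07, 0.31 and 0.18, and on TPM all 4 turned below 0.

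The activators Psme1 and Psme3 had the largest rises after Psma8. Psme1 and Psme2 form the interferon-inducible PA28 cap and lie beside each other at chr14:55578123-55581528 and chr14:55587441-55591113. Psme1 was at 8.47, 15.0 and 8.24 FPKM at 2 months and 37.5, 35.6 and 36.0 FPKM at 18 months, a log2 fold change of 1.72 (SE 0.22, edgeR adjusted p = 0.00254). Psme2 had 15.6, 17.9 and 14.1 against 44.9, 33.8 and 35.5 FPKM, a log2 fold change of 1.18 (SE 0.13, edgeR adjusted p = 0.00188). In both genes 2-month replicate 2 was the highest of its age and stayed below every 18-month library. Psme2 has a near copy, Psme2b, so its reads may be split between them.

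Psme3, the nuclear PA28 subunit, rose from 20.3, 31.3 and 19.7 to 66.3, 62.4 and 57.3 FPKM, with a log2 fold change of 1.32 (SE 0.17, edgeR adjusted p = 0.00276). Psme4 encodes PA200, a single-chain cap of the nucleus, and stood at 9.28, 13.2 and 10.5 FPKM against 9.96, 10.2 and 10.3. Its ages overlapped, at a log2 fold change of -0.19 (SE 0.12, edgeR adjusted p = 0.251), and on TPM it passed as lower at -0.53 (limma adjusted p = 0.0498). The FPKM of Psme1 divided by that of Psme4 was 0.786 to 1.14 at 2 months and 3.49 to 3.76 at 18 months. Psmf1, an inhibitor of the core in the test tube, had 3.33, 4.21 and 3.82 FPKM against 5.51, 6.85 and 6.96, a log2 fold change of 0.69 (SE 0.14, edgeR adjusted p = 0.0108).

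The assembly chaperones were the scarcest class, with library medians of 6.62 to 7.89 FPKM at 2 months and 9.64 to 10.7 at 18 months, and none passed both limits. Psmg1 and Psmg2 form 1 dimer that assembles the alpha ring. Psmg1 was at 12.2, 9.87 and 8.85 against 13.5, 10.7 and 11.02 FPKM, overlapped between ages and did not pass, at 0.10 (SE 0.18, edgeR adjusted p = 0.663). Psmg2 rose from 7.89, 6.77 and 7.59 to 10.2, 11.6 and 11.1 FPKM, a log2 fold change of 0.48 (SE 0.15, edgeR adjusted p = 0.0396). Psmg3 and Psmg4 form the other dimer of the ring. Psmg3 rose from 2.06, 2.70 and 2.22 to 3.78, 3.22 and 3.62 FPKM, at 0.53 (SE 0.16, edgeR adjusted p = 0.0359). Psmg4 had 11.2, 6.78 and 6.62 against 14.9, 12.1 and 9.64 FPKM, with overlap, and did not pass at 0.48 (SE 0.31, edgeR adjusted p = 0.238). So 1 partner of each dimer passed the test and the other did not, and whether partners differ was not tested.

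Psmd5, Psmd9 and Psmd10 attend the ATPase ring of the cap base. Psmd5 was at 4.81, 4.88 and 4.77 FPKM at 2 months and 7.67, 7.43 and 6.52 at 18 months, a log2 fold change of 0.50 (SE 0.10, edgeR adjusted p = 0.00911). Psmd9 had 2.46, 2.00 and 1.93 against 2.80, 3.81 and 4.14 FPKM, at 0.67 (SE 0.21, edgeR adjusted p = 0.0429). Psmd10, also called gankyrin, rose from 10.3, 12.2 and 9.75 to 19.8, 17.8 and 18.4 FPKM, at 0.72 (SE 0.11, edgeR adjusted p = 0.00381). It was the highest of the chaperones at 18 months and lies on the X chromosome. For this and every other gene here the sex pattern of the libraries and age cannot be told apart. The calls of Psmg2, Psmg3 and Psmd9 were each lost in 8 or 9 of the 16 other settings.

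Other genes that regulate or work with the proteasome were taken from a list of 32, of which 15 rose, 5 fell and 12 did not pass. Without Psmb8, Psmb9 and Psmb10 these were 12, 5 and 12 of 29, against 23.4% of all genes tested that were higher and 27.9% that were lower, and 36.3% higher among those with a mean FPKM of at least 5. The 3 largest rises were those of the immunoproteasome subunits, Psmb9 at a log2 fold change of 3.64 (SE 0.81, edgeR adjusted p = 0.0136), Psmb8 at 3.53 (SE 1.07, edgeR adjusted p = 0.0364) and Psmb10 at 2.04 (SE 0.44, edgeR adjusted p = 0.0119). The call of Psmb8 held without 2-month replicate 2, at 5.66, and was lost without any other single library, at 3.05 to 3.55 (edgeR adjusted p of 0.0625 to 0.0828). Without 2-month replicate 2 Psmb9 and Psmb10 stood at 5.05 and 2.70.

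The 3 largest falls were those of Nfe2l1, Nfe2l3 and Ddi2. Nfe2l1, the factor that raises proteasome genes when the proteasome is inhibited, was at 66.3, 49.7 and 61.4 FPKM at 2 months and 20.9, 14.1 and 12.8 FPKM at 18 months. Its libraries were far apart, with a log2 fold change of -1.98 (SE 0.24, edgeR adjusted p = 0.00233). Ddi2, the protease that cleaves Nfe2l1 into its active form, fell from 24.1, 25.0 and 23.3 to 13.0, 12.1 and 12.1 FPKM, at -1.04 (SE 0.10, edgeR adjusted p = 0.00134). Nfe2l3, a relative of Nfe2l1, fell from 0.601, 0.400 and 0.610 to 0.277, 0.145 and 0.166 FPKM, at -1.52 (SE 0.40, edgeR adjusted p = 0.0243). That call was lost without 2-month replicate 1 or 3 and without 18-month replicate 2 or 3, at -1.41 to -1.35 (edgeR adjusted p of 0.0672 to 0.0873). With the replicate block it was lost too (edgeR adjusted p = 0.0508). Of the 9 other settings that kept every library apart, 7 passed, with values from -1.73 to -0.36 over the 9. Ngly1, which removes the sugars of Nfe2l1, did not pass, at 0.12. Nfe2l2 went the other way, from 11.9, 14.7 and 11.3 to 29.8, 31.2 and 31.7 FPKM, at 1.22 (SE 0.11, edgeR adjusted p = 0.00127).

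Pomp, the chaperone that matures the core, rose from 8.36, 9.83 and 8.12 to 15.7, 15.5 and 14.8 FPKM, at 0.73 (SE 0.09, edgeR adjusted p = 0.0022). Adrm1, a ubiquitin receptor of the cap, and Sem1, a small lid subunit, rose by 0.45 and 0.63 on the log2 scale. The call of Sem1 was lost without 2-month replicate 3, at 0.59 (edgeR adjusted p = 0.051). In the 9 other settings that kept every library apart, Pomp, Adrm1 and Sem1 each passed in 8. Their lowest values were 0.38, 0.090 and 0.28. Of the deubiquitinases that ride on the cap, Uchl5 rose by 1.64 and Usp14 by 0.79. Ubqln2, a shuttle factor that brings ubiquitinated proteins to the cap, fell by 0.86. Ubb, a gene for ubiquitin itself, rose by 0.69. Nfe2l2, Uchl5, Usp14, Adrm1, Sem1, Ubqln2, Ubb and Ngly1 were singled out after their values were seen.

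**Figure D4:**
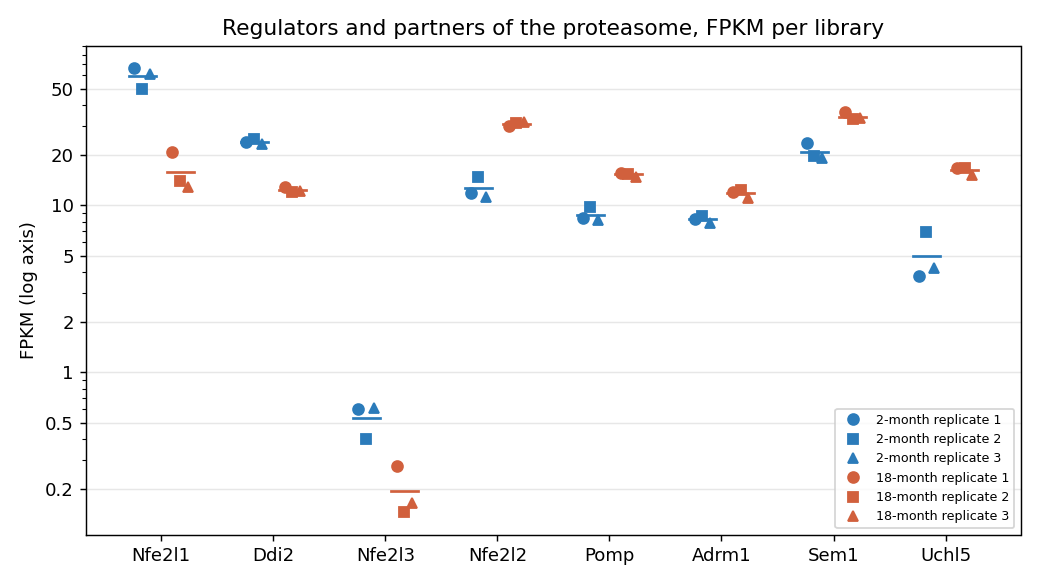
FPKM of 8 regulators and partners of the proteasome on a log axis, with 1 point for each library and bars at the mean of each age. Nfe2l1, Ddi2 and Nfe2l3 lie lower at 18 months in all 3 libraries, and the others lie higher, with Nfe2l1 at 12.8 to 20.9 against 49.7 to 66.3 FPKM.

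The genes most like the core over the 6 libraries, by Pearson's r of log2(FPKM + 0.1) with the mean standardized level of the core genes tested, were Fcf1 (r = 0.9998), Tubb4b-ps1 (r = 0.9997), Nsmce1 (r = 0.9995), Rnf114 (r = 0.9990) and H2-T22 (r = 0.9987). These r values share the 6 libraries and mostly restate the age difference, and they carry no test.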

How the data were processed

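Articular cartilage was profiled by poly(A)-selected, strand-specific RNA sequencing with molecular identifiers. The authors deposited 1 whole-number count and 1 FPKM value for each gene and library, the counts without normalization and the FPKM values scaled by transcript length and library total. The submitters' processing notes name cutadapt 1.9, HISAT2 2.0.4, UMI-tools and StringTie 1.3.4d, and the build is not given in the sources used here. All 45 genes were found in GENCODE M21, 39 with the same start, end and strand, so coordinates are read as GRCm38. Those that differed were Psma7, Psma8, Psmd8, Psmd9, Psmd13 and Psme1, and of these only the interval of Psme1 is printed. Libraries held 48171507 to 59085179 counts, and 0 columns of values per library were left out.

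Counts were tested with edgeR 4.0.16 in R 4.3.3 (TMM, filterByExpr, quasi-likelihood test without a block, Benjamini-Hochberg over 20397 genes). Each SE was obtained from the log2 fold change and the F statistic, as their quotient after taking the root of F. Levels are FPKM. Alternatives were DESeq2 1.42.0, limma 3.58.1 on log2(FPKM + 0.1), log2(FPKM + 1) and log2(TPM + 0.1), other scalings and filters, a replicate block and leaving out each library. Summing 18-month replicates 2 and 3, which differed least (6.46 times counting noise, against 12.6 to 45.2 in other pairs), was added after seeing the data. The tests were checked on simulated counts with the same spread for all genes and changes larger than those of most proteasome genes. That check does not measure how well smaller changes are found. The members, classes, pathway and marker lists, promoter motifs and promoters printed were chosen with earlier results of these data known.

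Values are given for the largest and smallest log2 fold change and highest mean FPKM of each class, the catalytic beta subunits, genes past both limits, genes failing the filter, all activators and chaperones, the 3 largest rises and falls of the pathway list, Pomp, and the 5 genes most like the core. Other genes named were chosen after their values were seen. Some genes of the pathway list are counted and not reported singly here. Of 44 genes that carry the KEGG proteasome term in the table, 37 are among the 45. Promoter windows came from RefSeq (GRCm38.p6). Figures were drawn with matplotlib 3.10.9.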

Additional observations from a re-analysis of the deposited data

Results flagged for a closer look

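Genes with Psm names that fall outside the rule also gave signal. Psmc3ip, which encodes a partner of meiotic recombinases and no proteasome subunit, had 146, 184 and 179 counts at 2 months and 565, 674 and 692 at 18 months, so the lowest 18-month count was 565. Its log2 fold change was 1.66 (SE 0.21, edgeR adjusted p = 0.0024). Psme2b, the near copy of Psme2 on chromosome 11, had 499, 932 and 437 counts at 2 months and 2070, 1678 and 1635 at 18 months, the lowest 18-month count being 1635. Its log2 fold change was 1.28 (SE 0.25, edgeR adjusted p = 0.00923), and its FPKM was 0.658 to 1.06 of that of Psme2 at 2 months and 0.819 to 0.944 at 18 months. How reads were divided between Psme2 and Psme2b is not given in the sources used here.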

How the results depend on the processing

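The number of proteasome genes that rose was 34 and lay between 30 and 36 with DESeq2, other size factors, no filter or limma on FPKM, at 28 with 18-month replicates 2 and 3 summed, and between 25 and 33 with 1 library left out. The number past both limits, 12, lay between 12 and 14 in these settings. TPM gave 17 higher, 2 lower (Psmd7 and Psme4), 2 past both limits and a median of 0.34, and 33.1% of all its calls were higher, against 45.6%. On TPM the signs turned for Psmb6 (-0.14), Psmc1 (-0.0023), Psmc5 (-0.086), Psmd2 (-0.17), Psmd3 (-0.28), Psmd8 (-0.035), Psmd12 (-0.18) and Psmg1 (-0.24). Its own scaling moved the median of all genes to -0.37, and the cause of that shift was not tested. The number lower ranged from 0 to 1 with 1 library left out, the 1 being Psmd7 without 2-month replicate 2. Same-numbered libraries showed little shared deviation (r of 0.03, 0.04 and -0.02 over genes). With 3 libraries at each age this cannot settle whether the replicate numbers pair them. A fit with the replicate block gave 26 higher, 0 lower and 12 past both limits. Among genes that did not pass, Psmd8 passed as higher in 6 alternatives (0.39 with DESeq2), Psmc5 with DESeq2 (0.36) and Psmb6 with limma on FPKM with the filter (0.30 and 0.29). The immunoproteasome ratios could not pass any threshold with 3 libraries against 3, so their exact p says nothing of stability. Among the 45 genes, counts limit only Psma8 and Psmb11, with 20 and 0 as their lowest. Of the pathway list, Nfe2l3 had 99, 70 and 103 counts at 2 months and 57, 28 and 32 at 18 months. Psmb8 and Psmb9 had as few as 86 and 73 counts, both in 2-month replicate 1.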
